A study of Mus musculus with 6 samples.

Results

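Platelet alpha granules are the storage granules that megakaryocytes build and pass on to platelets. The genes described here are a list of 10 for their cargo, their membrane proteins or the machinery that forms them. In that list F2rl2 encodes a thrombin receptor cofactor of platelets, and its place in the granule was not tested. The 10 genes are Pf4, Ppbp, Vwf, Selp, Mmrn1, Thbs1, F2rl2, Srgn, Nbeal2 and Vps33b. They were taken by gene name from a deposited table of 26014 genes, and each name matched 1 row. The RNA came from untreated mouse fetal livers at embryonic day 14.5, with 3 wild-type libraries (WT) and 3 libraries labelled as Gata1 3′ UTR knockout (KO). The sources used here do not give the extent of the deleted stretch, the strain or whether a library held 1 embryo or a pool. The p-values set the group difference against the spread between these libraries. Whether that spread is between embryos or technical is not known. The labels name the cells embryonic hepatocytes, but 8 erythroid marker genes summed to between 24426 and 34084 FPKM in each library and 12 hepatoblast markers to between 414.1 and 2405.5 FPKM. FPKM, the deposited unit, counts fragments relative to exon length and to library size, so levels can be compared between genes.

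A megakaryocyte fills its alpha granules by making proteins such as the chemokines PF4 and PPBP, von Willebrand factor and thrombospondin, and by taking up others from plasma. Granules mature from multivesicular bodies, a step that needs the BEACH domain protein NBEAL2 and the VPS33B and VIPAS39 pair. Loss of NBEAL2 causes gray platelet syndrome, and loss of VPS33B causes a disorder with platelets that lack these granules. GATA1, a transcription factor of red cells and megakaryocytes, is needed for megakaryocytes to mature, and its partners there include ETS factors such as FLI1. In the mouse fetal liver megakaryocytes are a minority among the erythroid cells.

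Gata1 itself had 142.9, 141.8 and 165.8 FPKM in WT and 67.2, 67.7 and 68.2 FPKM in KO, so each KO library lay below all WT libraries (log2 fold change -1.13, limma, adjusted p = 0.000638). FPKM covers all exons, the targeted part included. Steps in the low values gave a depth of 14817600 to 16211200 fragments for each library. WT replicate 3 was the lowest and KO replicate 1 the highest library of its group for all 10 genes, and KO replicate 3 was the lowest KO library for all 10. The summed level of 14 megakaryocyte markers, mostly receptors and surface proteins, followed the same order among KO libraries, with 602.9, 495.8 and 330.9 FPKM in KO replicates 1 to 3. In WT replicates 1 to 3 it was 228.4, 236.1 and 141.4 FPKM. The low place of WT replicate 3 was not particular to these genes. Summed endothelial, hepatoblast, macrophage and stellate markers were also lowest there among WT libraries, but summed neutrophil and erythroid lists were lowest in WT replicate 2. The share of all genes with this order was not computed. In bulk RNA more cells of a type and more RNA per cell cannot be told apart.

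Pf4 and Ppbp lie next to each other on chromosome 5 of GRCm38, on the plus strand. Ppbp spans chr5:90768518-90770063 and Pf4 spans chr5:90772435-90773383, with 2371 bases and no annotated gene between them. The 30 bases before the RefSeq start of each gene (GRCm38.p6, chr5:90772405-90772434 and chr5:90768488-90768517, plus strand, 5′ to 3′) are shown because the levels of this pair are compared. Capitals mark a searched motif, here CTTCCT, the reverse complement of the ETS motif AGGAAG.
Pf4: tgtcattgcttctgcagagcaCTTCCTcat
Ppbp: tataaaaagaggtctggaggcatataaagc
The promoter windows of F2rl2 (chr13:95696810-95696839) and Mmrn1 (chr6:60944268-60944297), the genes with the largest fold changes among those tested, are shown for the stretch around their GATA motif. Capitals mark AGGAAG followed by AGATAA in F2rl2 and TGATAA in Mmrn1, each on the plus strand, and the RefSeq start of Mmrn1 lies inside the longer annotated gene.
F2rl2: gagggggtgAGGAAGAGATAAaagggatat
Mmrn1: cctggcgtttcctgcTGATAAttgtccatg

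Motifs were searched on both strands from 250 bases before to 50 bases after each RefSeq start, with AGATAA and also TGATAA, as well as AGATAG and also TGATAG, for GATA and with AGGAAG and also CGGAAG for ETS. In this search motifs could lie side by side, as in F2rl2. RefSeq windows were at hand for 7 of the 10 genes, in 8 windows. Vps33b, Vwf and Thbs1 had no window and were not searched. A GATA motif occurred in 3 genes, Pf4, Mmrn1 and F2rl2, and in 29.8% of all 32851 windows. In Pf4 it began 36 bases after the start. An ETS motif occurred in 5 genes, Pf4, Selp, F2rl2, Srgn and Nbeal2, and in 46.5% of all windows. These matches describe letters in a window and are not evidence of binding.

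Of the 10 genes, 9 passed the filter of a mean of at least 1 FPKM over the 6 libraries, and Selp did not. Of these 9, Vps33b, Mmrn1 and F2rl2 rose, none fell and 6 did not pass (limma, Benjamini-Hochberg adjusted p under 0.05). Among all 11142 tested genes 5.93% were called higher and 3.62% lower. All KO libraries lay above all WT libraries for 7 of the 10 genes, which includes 6 of the 9 tested genes, beside 26.8% of all tested genes. The median log2 fold change of the 9 tested genes was 0.61, and that of all tested genes was 0.09.

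**Figure D1:**
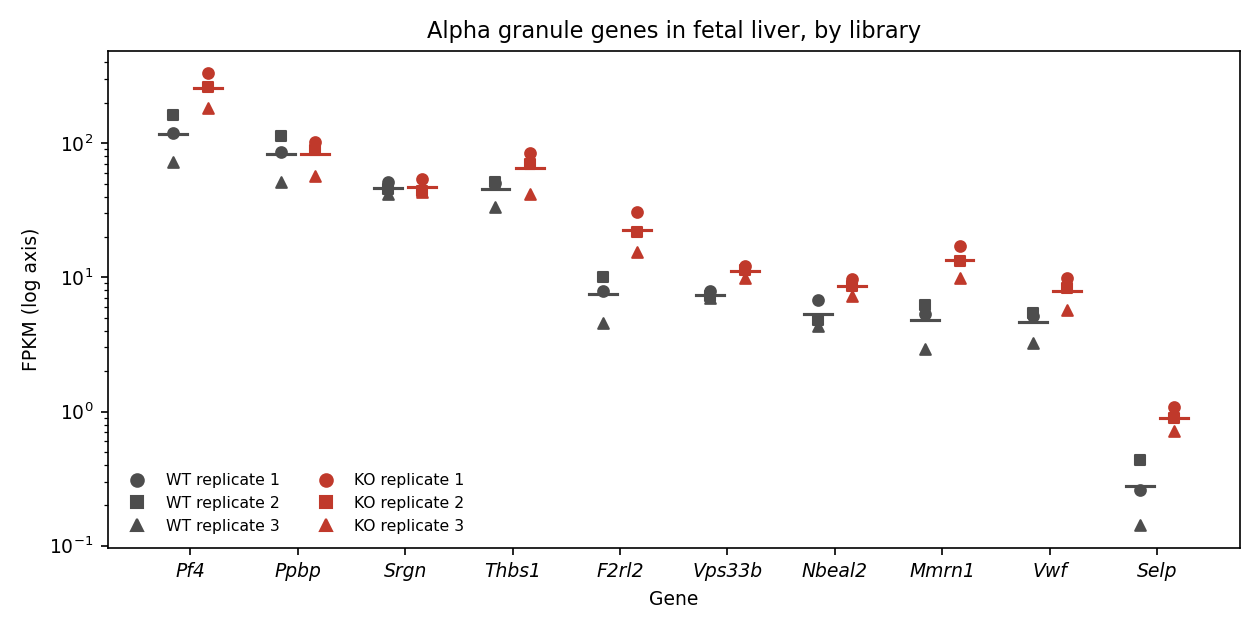
FPKM (log axis) of the 10 alpha granule genes in each library, with WT in grey, KO in red, symbols for the replicate numbers and bars for group means, ordered by the WT mean. Pf4 is highest in both groups, Selp is lowest, and the groups overlap for Ppbp, Srgn and Thbs1.

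The level of these genes spanned a wide range. In WT the order by mean was Pf4, Ppbp, Srgn, Thbs1, F2rl2, Vps33b, Nbeal2, Mmrn1, Vwf and Selp, from 117.8 down to 0.278 FPKM. The ranges of neighbours in that order overlapped except between Thbs1 and F2rl2, between Vps33b and Nbeal2 and between Vwf and Selp. In KO the order was Pf4, Ppbp, Thbs1, Srgn, F2rl2, Mmrn1, Vps33b, Nbeal2, Vwf and Selp, from 258.2 down to 0.895 FPKM. There the ranges of Pf4 and Ppbp no longer overlapped.

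Among the chemokine cargo, Pf4, which encodes platelet factor 4, a heparin-binding CXC chemokine, had 119.8, 161.1 and 72.4 FPKM in WT and 331.5, 261.4 and 181.7 FPKM in KO. Every KO library was above every WT library, and the means were 117.8 ± 44.4 and 258.2 ± 75.0 FPKM (SD, n = 3 each), a ratio of 2.19. Its log2 fold change was 1.16 (95% interval 0.39 to 1.92), short of the threshold (limma, adjusted p = 0.0685). The adjusted p ran from 0.0169 to 0.204 over 14 alternative analyses, 5 of which called Pf4 higher. The lowest value, among these calls, came from a fit that paired libraries by replicate number, a pairing the labels do not state. WT libraries differed among themselves by more than the distance between WT replicate 2 and KO replicate 3.

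Ppbp, which encodes pro-platelet basic protein, the precursor of CXC chemokines such as NAP-2, stood at 86.0, 113.9 and 51.0 FPKM in WT and at 102.0, 88.6 and 57.4 FPKM in KO. The groups overlapped, with means of 83.6 ± 31.5 and 82.7 ± 22.9 FPKM (SD, n = 3 each). Its log2 fold change was 0.02, in a 95% interval of -0.74 to 0.78 (limma, adjusted p = 0.977), so a change of either sign within that interval could not be told from none. Its sign depended on the scaling, with -0.08 after median-of-ratios scaling and 0.14 at equal summed FPKM.

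Both chemokine genes varied together between libraries of a group, and their ratio did not. The ratio of Pf4 to Ppbp FPKM was 1.39, 1.41 and 1.42 in the WT libraries and 3.25, 2.95 and 3.16 in the KO libraries. The ratio therefore lay in a narrow band in each group, 1.41 ± 0.0136 in WT and 3.12 ± 0.154 in KO (SD, n = 3 each), and the bands did not overlap. The log2 difference between Pf4 and Ppbp was larger in KO than in WT by 1.14, and the exact two-sided permutation test over the libraries gave p = 0.1, the smallest that 3 against 3 libraries allow. With any 1 library left out the difference stayed between 1.11 and 1.18. The pair was chosen for comparison with earlier results of these data known. About 831 to 3861 fragments lay behind a Pf4 value and about 880 to 1999 behind a Ppbp value.

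**Figure D2:**
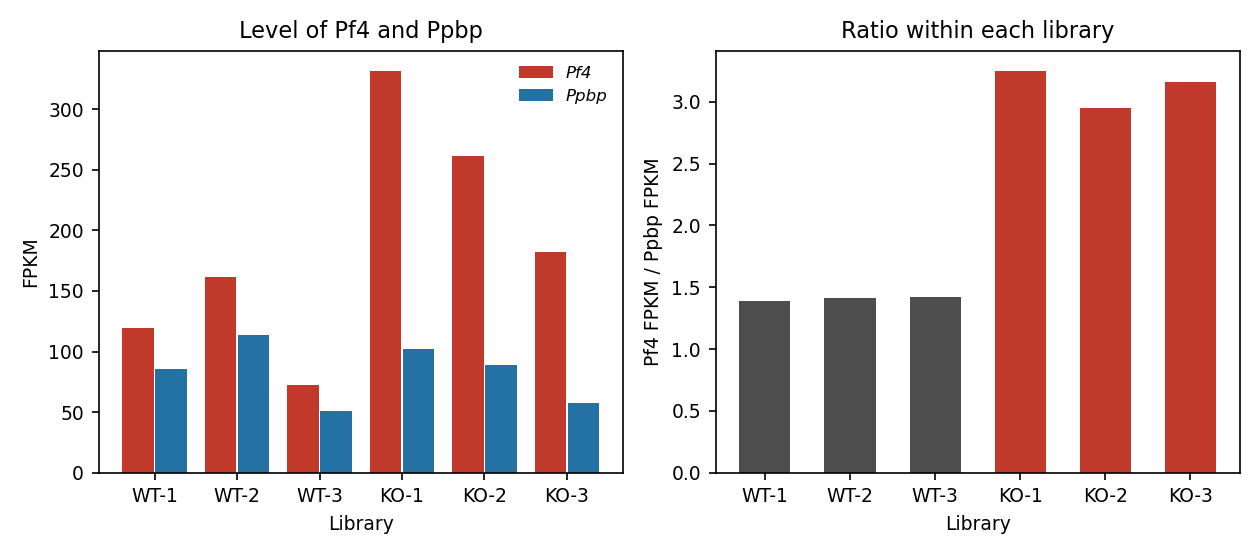
Left, FPKM of Pf4 (red) and Ppbp (blue) in each library. Right, the ratio of Pf4 to Ppbp FPKM within each library, 1.39 to 1.42 in the WT libraries (grey) and 2.95 to 3.25 in the KO libraries (red).

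The patterns most like the pair over the 6 libraries differed too, as a description by Pearson correlation of log2(FPKM + 1) among 6722 genes with a mean of at least 5 FPKM. Closest to Pf4 were Sdpr (r = 0.999), Plek (r = 0.998) and Ptprj (r = 0.995). Plek encodes pleckstrin, a substrate of protein kinase C in platelets, and had 26.8, 33.8 and 15.2 FPKM in WT and 74.1, 55.6 and 41.5 FPKM in KO. Closest to Ppbp were Slc25a4 (r = 0.980), a mitochondrial ADP/ATP carrier, Sec61a1 (r = 0.972), a subunit of the translocon of the endoplasmic reticulum, and Mgst1 (r = 0.967), a microsomal glutathione transferase. Pf4 and Ppbp correlated at r = 0.600. The points share libraries, and 6 points allow high values among so many genes. The other CXC chemokine genes of the cluster, Cxcl5, Cxcl3, Cxcl15, Cxcl1 and Cxcl2, were too low to be tested, with a summed level of 0.342 to 0.758 FPKM per library.

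Among the adhesive cargo, Mmrn1 rose. It encodes multimerin 1, a large protein that binds coagulation factor V in platelet granules, and stood at 5.29, 6.24 and 2.93 FPKM in WT and at 17.2, 13.3 and 9.95 FPKM in KO. The groups did not overlap. The log2 fold change was 1.33 (standard error 0.266, limma, adjusted p = 0.0302), and the KO mean was 2.80 times the WT mean. The call was lost with no filter on low values and when replicate 1 or 3 of WT or replicate 1 or 2 of KO was left out (limma, adjusted p up to 0.110).

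Vwf encodes von Willebrand factor, which tethers platelets to collagen and is also made by endothelial cells. It had 5.18, 5.42 and 3.24 FPKM in WT and 9.81, 8.32 and 5.74 FPKM in KO, with no overlap although KO replicate 3 lay just above WT replicate 2. The log2 fold change of 0.67 (95% interval 0.15 to 1.19) did not pass (limma, adjusted p = 0.101). Thbs1, the gene of the adhesive glycoprotein thrombospondin 1, had 50.9, 51.0 and 33.7 FPKM in WT and 84.0, 70.2 and 42.0 FPKM in KO. KO replicate 3 lay below WT replicates 1 and 2, and the log2 fold change of 0.49 (95% interval -0.16 to 1.14) did not pass (limma, adjusted p = 0.276). The lncRNA gene Gm29233 overlaps 3.4% of the Thbs1 exon bases on the other strand, and reads of such pairs cannot be told apart, since the sources used here do not say whether counting used strand.

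Of the membrane proteins, Selp encodes P-selectin, which moves from the granule to the platelet surface and binds leukocytes. It was the lowest of the 10 genes, with 0.260, 0.433 and 0.142 FPKM in WT and 1.08, 0.893 and 0.710 FPKM in KO. All KO libraries were above all WT libraries. About 10 to 31 fragments lay behind each WT value and about 49 to 77 behind each KO value. The KO mean was 3.21 times the WT mean, but the gene was tested only with no filter on low values and did not pass there (limma, log2 fold change 0.57, adjusted p = 0.0853). Exons of 2 noncoding genes on the other strand, Gm16548 and Gm16587, overlap 9.9% and 4.2% of its exon bases.

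F2rl2 encodes protease-activated receptor 3, which in mouse platelets serves as the cofactor that brings thrombin to receptor 4. It had 7.93, 9.98 and 4.59 FPKM in WT and 30.6, 21.6 and 15.5 FPKM in KO. The lowest KO library was above the highest WT library. Its log2 fold change of 1.47 (standard error 0.306) was the largest among the 9 tested genes (limma, adjusted p = 0.0338). That call was lost under the same 5 settings as that of Mmrn1 (limma, adjusted p up to 0.115). The gene lies opposite Iqgap2 without shared exon bases. Its relatives F2r, the gene of receptor 1, and F2rl3, the gene of receptor 4, had log2 fold changes of 0.75 and 0.84 and did not pass (limma, adjusted p = 0.0685 and 0.136).

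Srgn encodes serglycin, the proteoglycan that holds basic cargo such as PF4 in granules of platelets and of other blood cells. It had 51.6, 45.8 and 41.6 FPKM in WT and 54.5, 43.8 and 43.2 FPKM in KO. The groups overlapped, and the log2 fold change was 0.02, in a 95% interval of -0.24 to 0.29 (limma, adjusted p = 0.910). Its sign turned with the scaling in the same way as that of Ppbp. Among 15 tested genes of the synthesis of its sugar chains 1 rose, Ndst2, a heparan sulfate sulfotransferase, by 0.36 on the log2 scale (limma, adjusted p = 0.0166). That count is near the 5.93% of all tested genes called higher.

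Both genes of granule formation were higher in every KO library. Vps33b, whose product belongs to the Sec1/Munc18 family of membrane fusion proteins, had 7.85, 7.30 and 6.97 FPKM in WT and 12.1, 11.3 and 9.93 FPKM in KO. The groups were well apart, with the smallest relative spread in WT of the 10 genes. The log2 fold change was 0.53 (standard error 0.0845, limma, adjusted p = 0.0162). The call was kept in 11 of 14 alternatives and lost when replicate 3 of WT or replicate 1 or 2 of KO was left out (limma, adjusted p up to 0.0783). Nbeal2 had 6.77, 4.81 and 4.31 FPKM in WT and 9.78, 8.65 and 7.22 FPKM in KO, again without overlap. Its log2 fold change of 0.61 (standard error 0.163) did not pass (limma, adjusted p = 0.0621), and 5 of 14 alternatives called it higher. For both genes the alternatives with a call included a fit that paired libraries by replicate number, a pairing the labels do not state.

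**Figure D3:**
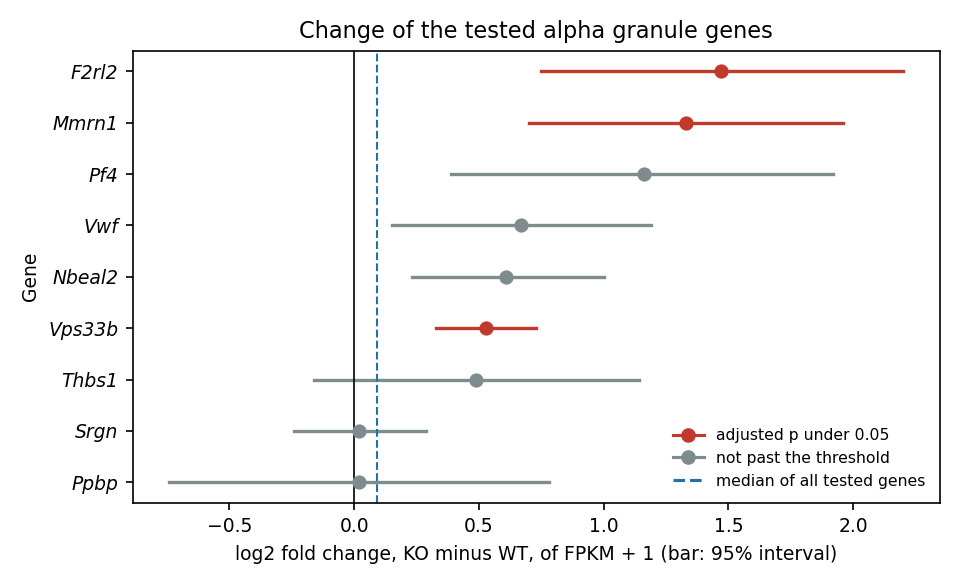
Log2 fold change of FPKM + 1, KO minus WT, of the 9 tested alpha granule genes, with bars for 95% intervals. F2rl2, Mmrn1 and Vps33b (red) passed, the other genes (grey) did not, and the dashed line is the median of all tested genes, 0.09.

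The 10 genes were also set against other megakaryocyte genes. The 14 megakaryocyte markers, none of them among the 10, summed to 2.36 times as much in KO as in WT. Most encode receptors or surface proteins, but Tubb1 and Alox12 do not. Of 13 tested markers 10 rose, among them Itga2b, Treml1 and Clec1b with log2 fold changes of 1.43, 1.38 and 1.25 (limma, adjusted p = 0.0291, 0.0248 and 0.0292). Tubb1, Alox12 and the surface marker Cd226, with 0.84, 0.94 and 1.05, did not pass (limma, adjusted p = 0.0742, 0.0897 and 0.0509). The marker P2ry12 was too low to be tested, with means of 0.652 FPKM in WT and 0.736 FPKM in KO. Among all tested genes 5.93% were called higher. The count of 10 fell to 0 when replicate 3 of WT or replicate 1 or 2 of KO was left out and with no filter, and to 3 without WT replicate 1. Divided by the marker sum of its own library, Pf4 was at 52.5%, 68.3% and 51.2% in WT and at 55.0%, 52.7% and 54.9% in KO, so its groups overlapped. Ppbp was at 37.7%, 48.2% and 36.1% in WT and at 16.9%, 17.9% and 17.3% in KO, where every library was below the WT libraries.

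On this scale Vwf varied little within a group. It was at 2.27%, 2.30% and 2.29% of the marker sum in WT and at 1.63%, 1.68% and 1.74% in KO, lower in every KO library. Thbs1, at 22.6% ± 1.13 in WT and 13.6% ± 0.795 in KO (SD, n = 3 each), Srgn, at 23.8% ± 5.13 and 10.3% ± 2.39, and Vps33b, at 3.82% ± 0.977 and 2.43% ± 0.513, were also lower in every KO library. Mmrn1 was at 2.34% ± 0.288 in WT and 2.85% ± 0.162 in KO, and F2rl2 at 3.65% ± 0.516 and 4.70% ± 0.365, both higher in every KO library. The gaps were narrow, since WT replicate 2 and KO replicate 2 were at 2.64% and 2.68% for Mmrn1. For F2rl2 these 2 libraries were at 4.23% and 4.35%. Pf4, Selp and Nbeal2 overlapped. Thus 5 genes were below, 2 above and 3 overlapping. Of all 11142 tested genes 89.0% were below in every KO library on this scale and 0.278% above, so a place below is the common one. These shares were not tested.

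**Figure D4:**
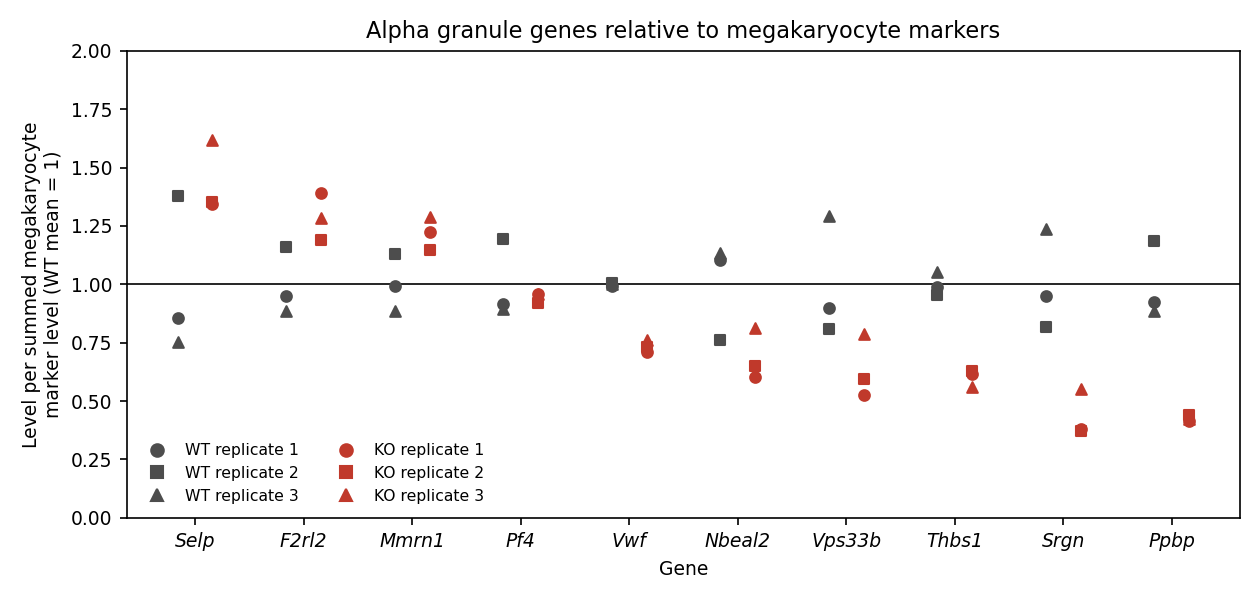
Level of each alpha granule gene divided by the summed level of 14 megakaryocyte markers in the same library, with the WT mean of each gene set to 1 and symbols as replicate numbers. Ppbp and Srgn lie lowest in the KO libraries (red), while F2rl2 and Mmrn1 lie above all WT libraries (grey).

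Further genes of the granule pathway were read from lists. Of 24 tested genes of 33 for other alpha granule cargo and membrane proteins 4 rose, none fell and 20 did not pass, with a median log2 fold change of 0.41 beside 0.09 for all tested genes. Those that rose were Clu (clusterin, a secreted chaperone), from 7.83 ± 2.52 to 20.5 ± 6.36 FPKM, Ecm1 with a log2 fold change of 0.49, Tgfb1, the gene of transforming growth factor beta 1, with 0.42, and Lamp1, a lysosomal membrane protein, with 0.23 (limma, adjusted p = 0.0400, 0.0393, 0.0453 and 0.0390). The fibrinogen chains Fga, Fgb and Fgg, which platelets take up from plasma and hepatocytes make, did not pass, with log2 fold changes of 0.17, 0.24 and 0.16. The count of 4 was 0 when replicate 3 of WT or replicate 1 or 2 of KO was left out and with no filter. It was 1 without WT replicate 1 or with median-of-ratios scaling, and 2 without KO replicate 3. Among all tested genes 5.93% were called higher.

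Of 21 further genes of granule formation and sorting 1 rose, Vipas39, the partner of Vps33b, from 5.66 ± 0.0738 to 6.98 ± 0.385 FPKM (SD, n = 3 each), or 0.26 on the log2 scale (limma, adjusted p = 0.0497). The median of the list was 0.12, beside 0.09 for all tested genes. Of all tested genes 5.93% were called higher, so 1 of 21 is near the common share. The call of Vipas39 stood just inside the threshold, and the count was 0 with no filter, with median-of-ratios scaling and without each library but WT replicate 2. Just outside were Cltc, the clathrin heavy chain, with 0.19, and Igf2r, the mannose 6-phosphate receptor of lysosomal sorting, with 0.88 (limma, adjusted p = 0.0509 and 0.0539). The other subunits of the tethering complexes that VPS33A serves, such as Vps16, Vps18 and Vps11, had log2 fold changes of 0.12, 0.07 and 0.08 and did not pass. Vps33a itself had 0.18 (limma, adjusted p = 0.126).

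Of 20 tested genes of granule release 3 rose and 17 did not pass. They were Unc13d, which primes granules for fusion, from 28.2 ± 1.24 to 40.3 ± 0.862 FPKM, or 0.50 on the log2 scale (limma, adjusted p = 0.00475), Rab27b, a small GTPase of platelet granules, with 1.18, and the syntaxin gene Stx4a with 0.53 (limma, adjusted p = 0.0372 and 0.0377). Of 23 tested genes of dense granules, the other storage granules of platelets, 3 rose and 20 did not pass. These were Abcc4, a nucleotide transporter, with 0.48, Hps4, a subunit of a complex for lysosome-related organelles, with 0.49, and Slc35d3, with 1.32 (limma, adjusted p = 0.0173, 0.0291 and 0.0374). The medians of both lists, 0.17 and 0.13, were close to that of all tested genes, 0.09. Among all tested genes 5.93% were called higher. With replicate 3 of WT or any 1 KO library left out, the count for release fell to 1, and that for dense granules to 1 or 0. With no filter each fell to 1.

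Relatives of the adhesive and granule proteins were mixed. Emilin2, of the family of multimerins and emilins, fell from 27.7 ± 1.46 to 16.9 ± 1.52 FPKM (log2 fold change -0.68, limma, adjusted p = 0.00614), and Emilin1 had 0.54 and did not pass. Selplg, the gene of the P-selectin ligand, was at -0.04 on that scale (limma, adjusted p = 0.707). Among 6 tested relatives of Nbeal2 with a BEACH domain 1 rose, Nsmaf, with 0.23 (limma, adjusted p = 0.0453), and Lyst had 0.25 and did not pass. None of 6 tested Sec1/Munc18 relatives of Vps33b passed.

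**Figure D5:**
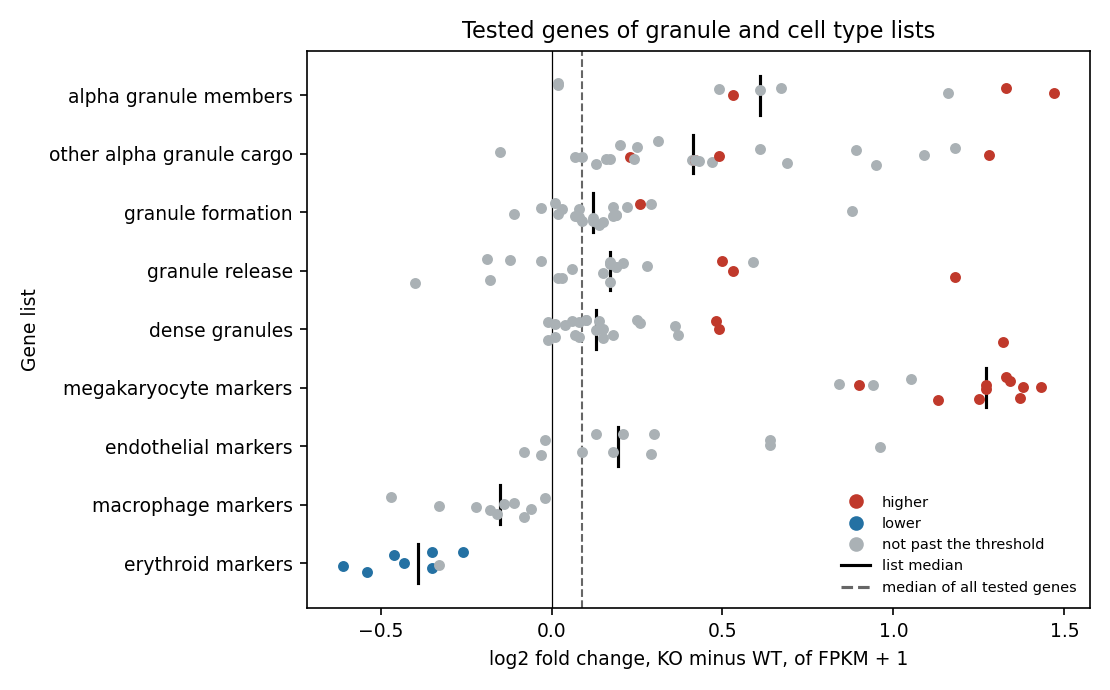
Log2 fold change of FPKM + 1, KO minus WT, of each tested gene in 9 lists, coloured by call, with a black bar for the list median and a dashed line for the median of all tested genes (0.09). Megakaryocyte markers have the highest median, 1.27, and the alpha granule genes 0.61.

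Several of the 10 genes are also active in other cells of the fetal liver. None of 12 tested endothelial markers passed, and 9 had positive log2 fold changes. For 2 of the 12, Tie1 and Esam, all KO libraries lay above all WT libraries, beside 26.8% of all tested genes. Their log2 fold changes were 0.96 and 0.64 (limma, adjusted p = 0.0559 and 0.110). The summed level of all 14 endothelial markers was 24.3 to 53.0 FPKM in WT and 38.1 to 58.1 FPKM in KO, with WT replicate 3 lowest, and none was at 0 in any library. None of 10 macrophage markers passed, with sums of 85.7 to 162.2 FPKM in WT and 81.7 to 139.7 FPKM in KO. Of 12 tested markers of neutrophils, mast cells and other granulocytes, cells that also hold serglycin, 1 fell, the basophil gene Mcpt8 (log2 fold change -1.12, limma, adjusted p = 0.0135). Sums of that list were 1596 to 2280 FPKM in WT and 1840 to 2411 FPKM in KO. Of 4 tested stellate and mesenchymal markers 1 rose (Reln, log2 fold change 1.40, limma, adjusted p = 0.00934). The 6 markers of that list summed to 3.51 to 6.23 FPKM in WT and 9.69 to 18.4 FPKM in KO, a ratio of means of 2.54 without overlap, and 1 of them was at 0 in a library. The sum was uneven. From the WT to the KO mean, Reln went from 1.76 to 6.12 FPKM, Col1a1 from 1.19 to 3.61 and Col3a1 from 1.14 to 2.33. Pdgfrb went from 0.978 to 1.11 FPKM, Des from 0.193 to 0.280 and Lrat from 0.0399 to 0.0236. None of 11 tested hepatoblast markers passed, and 7 of 8 erythroid markers fell. The part of these cells in the levels of Vwf, Selp, Mmrn1, Thbs1 and Srgn was not tested.

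The calls depended on the libraries and on scaling. The count of 3 alpha granule genes that rose became 0 when replicate 3 of WT or replicate 1 or 2 of KO was left out, and 1 with no filter on low values. Of all tested genes 661 were higher and 403 lower as deposited, but 252 and 495 after median-of-ratios scaling and 777 and 134 at equal summed FPKM, and the median over the tested genes moved from 0.09 to 0.01 and 0.20 on the log2 scale. The filter was applied anew after each scaling, which left 11141 and 11164 genes. Under each of these scalings Pf4, Vwf, Mmrn1, Thbs1, F2rl2, Nbeal2 and Vps33b kept positive log2 fold changes.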

How the data were processed

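FPKM values of each gene were deposited by the authors for 6 libraries, from RNA read in pairs, per the labels' protocols. Aligner, counter, build and strand setting: not given in the sources used here. GENCODE M21 holds 25945 of the 26014 identifiers, 23618 of them at the deposited positions, so coordinates are given as GRCm38. Annotation text spilled into 7 lines and 1 line was empty, and these were left out.

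FPKM were not counts, so limma 3.58.1 in R 4.3.3 (lmFit, eBayes with a trend) was run on log2(FPKM + 1), as a two-sided test of 11142 genes that averaged at least 1 FPKM, with Benjamini-Hochberg adjustment over all of them and a threshold of 0.05. This scale understates changes of low genes. The same step was tested on simulated data. Fragments per value were recovered with merged exon lengths, where 94.0% to 94.5% of low values were whole within 0.02. Each 95% interval is for the KO minus WT difference of means, with its width set by the moderated spread of libraries within groups. Prior degrees of freedom were 2.86 and residual 4.

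Genes named were the 10 members, the up to 4 lowest p-values per list, and the 3 genes closest in pattern to Pf4 and to Ppbp. Others, such as the fibrinogen chains and Vps16, Vps18 and Vps11, were picked after their values were seen. The members and lists were chosen with earlier results of these data known. Python 3.11.15, scipy 1.17.1, pandas 2.3.3 and matplotlib 3.10.9 were used for the rest.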

Additional observations from a re-analysis of the deposited data

How the results depend on the processing

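No alternative called any of the 10 genes lower (0 throughout). Those called higher, 3 as reported, were 1 with no filter, 5 at a mean FPKM of at least 5, 5 at equal summed FPKM with or without globin genes, and 0 to 4 with 1 library left out. Other alpha granule cargo genes called higher, 4 as reported, were 0 with no filter, 1 with median-of-ratios scaling, 9 at equal summed FPKM and 0 to 3 with 1 library left out. For granule formation, 1 as reported, they were 0 with no filter or median-of-ratios scaling, 3 at a mean of at least 5, 2 with library weights and 0 to 2 with 1 library left out. For release, 3 as reported, they were 1 with no filter and 1 to 4 with 1 library left out. For dense granules, 3 as reported, they were 1 with no filter, 1 at a mean of at least 5 and 0 to 3 with 1 library left out. Megakaryocyte markers, 10 as reported, were 0 with no filter and 0 to 13 with 1 library left out. Over all genes 62 to 736 were higher and 111 to 395 lower with 1 library left out, 267 and 246 with no filter, and 330 and 135 at equal summed FPKM outside globin genes. The log2 difference of Pf4 against Ppbp was 1.14 to 1.15 under the alternative scalings and pseudocount, and 1.11 to 1.18 with 1 library left out. With a replicate block 7 of the 10 genes and 9 other cargo genes were called higher. The labels do not say that the numbers pair the libraries. Deviations of same-numbered libraries correlated at -0.0974, 0.0116 and 0.256, and those of differently numbered libraries at -0.191 to 0.183. With 3 libraries per group these values cannot settle whether the numbers pair the libraries. WT replicate 1 correlated best with KO replicate 2, but the highest value of all was that of WT replicate 3 with KO replicate 3. The causes were not tested. The range of 10 to 31 fragments per WT library limits Selp.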
